A study of Mus musculus with 550 samples.

Results

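The genes described here are 40 genes of the cell division cycle, from the cyclins that open S phase to the kinesins that pull chromosomes apart. They were taken as a list of gene symbols covering 6 roles, and each was read from the probe set of its own with the highest mean in a tissue. Of the 40 genes, 39 were measured among the 17097 genes tested. Ccnb1, the mitotic cyclin B1, had no probe set annotated to it alone and is not analysed here.

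Expression was measured on 550 arrays of total RNA from harvested organs of C57Bl/6 mice after a single dose, 1 array per animal and organ, so p-values measure the spread between animals. The dosed groups received DMF (dimethyl fumarate) at 100 mg/kg, DMF at 179.2 mg/kg, MEF (salts of monoethyl fumarate with Ca2+, Mg2+ and Zn2+) at 79.2 mg/kg, or DMF at 100 mg/kg together with MEF at 79.2 mg/kg. Vehicle animals received 0.8% hydroxypropyl methylcellulose, and naive animals, present at 12 h and not at 6 h, were not dosed. Spleen, inguinal and mesenteric lymph node, jejunum, kidney, brain and whole blood were taken 6 h or 12 h after the dose, giving 77 groups of 3 to 8 arrays. Sex and age are not given in the sources used here, and every comparison is within a wild-type strain, with no transgene. The arrays measure whole organs: fewer cells of a type and less RNA per cell cannot be told apart in them.

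A dividing cell passes from G1 into S phase when cyclin E and its kinase release E2F factors, which switch on the genes of replication. The MCM helicase is loaded on origins in G1 with the help of Cdc6 and is activated by Cdc45 and the GINS complex. DNA is copied with the sliding clamp Pcna, while ribonucleotide reductase, thymidylate synthase and thymidine kinase supply nucleotides. Genes of G2 and mitosis come up later, under Foxm1 and the MuvB complex, and their products are destroyed as the cell divides. In a mouse, spleen (a site of red cell formation), lymph nodes and the crypts of the gut hold many dividing cells, whereas kidney and brain hold few.

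The promoters of these genes carry short sequences by which this timing is known to be read, and 4 windows of 250 bases upstream of the start are printed here because their genes rose or fell below: Mcm5 and Mcm6 for the replication group, Cdc20 and Top2a for the mitotic group. They are from RefSeq on GRCm38.p6, written 5′ to 3′ on the gene's strand. Capitals mark matches on either strand to 3 kinds of motif. The first is CCAAT, the box bound by the factor NF-Y. The second is TTTGAA, known as the cell cycle homology region. The third is the E2F site, searched as TTTCCCGC, TTTCGCGC, TTTGCCGC or TTTGGCGC. A capital run longer than a motif holds overlapping matches, as in Mcm5 and Mcm6 where E2F letters lie on both strands.
Mcm5 (chr8:75109259-75109508, plus strand): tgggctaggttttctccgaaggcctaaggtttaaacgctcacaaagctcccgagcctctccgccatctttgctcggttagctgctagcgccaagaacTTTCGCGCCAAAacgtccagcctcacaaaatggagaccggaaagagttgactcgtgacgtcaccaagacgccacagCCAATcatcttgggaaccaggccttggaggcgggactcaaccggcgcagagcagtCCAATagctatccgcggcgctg
Mcm6 (chr1:128359706-128359955, minus strand): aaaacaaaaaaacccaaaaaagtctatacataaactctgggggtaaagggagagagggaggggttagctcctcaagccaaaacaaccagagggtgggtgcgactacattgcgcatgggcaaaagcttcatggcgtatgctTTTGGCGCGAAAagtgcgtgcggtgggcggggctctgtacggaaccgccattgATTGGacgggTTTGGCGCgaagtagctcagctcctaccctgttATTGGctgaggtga
Cdc20 (chr4:118437344-118437593, minus strand): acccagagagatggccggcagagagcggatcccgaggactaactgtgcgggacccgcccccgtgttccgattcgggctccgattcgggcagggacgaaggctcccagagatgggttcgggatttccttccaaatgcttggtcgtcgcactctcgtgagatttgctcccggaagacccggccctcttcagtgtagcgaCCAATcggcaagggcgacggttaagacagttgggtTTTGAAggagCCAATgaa
Top2a (chr11:99024190-99024439, minus strand): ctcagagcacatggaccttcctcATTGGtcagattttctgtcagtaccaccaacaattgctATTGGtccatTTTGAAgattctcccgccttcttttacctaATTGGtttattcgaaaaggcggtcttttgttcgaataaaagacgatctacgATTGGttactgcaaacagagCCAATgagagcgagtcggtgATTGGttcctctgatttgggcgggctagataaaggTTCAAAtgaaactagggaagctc

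Promoter windows were matched for 32 of the 40 genes, as 34 windows. CCAAT was in 25 of them (73.5%), against 33.8% of all 32851 windows of the table. TTTGAA was in 10 (29.4%, against 16.0%), those of Mcm2, Cdc45, Ccnb2, Cdk1, Cdc20, Ube2c, Mki67, Top2a, Kif11 and Cep55, and 9 of these 10 also held CCAAT (26.5%, against 5.55%). The E2F letters were in 5 (14.7%, against 1.86%), those of Mcm5, Mcm6, Mcm7, Cdc6 and Cdk1. By role, E2F letters were in 4 of 8 licensing and fork genes and in 0 of 8 spindle genes, and TTTGAA was in 2 and 4 of them. With the 50 bases after the start included, TTTGAA was in 47.1% of the windows, against 17.9% of all. These are counts of letters in a window and say nothing of binding.

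The 39 genes were expressed at different depths in the organs. In the spleen 34 of the 39 lay above the median gene at both times, in the jejunum 31 at both times, in the mesenteric node 29 at 6 h and 30 at 12 h, and in the inguinal node 24 and 23. In whole blood 19 did so at each time. In the kidney 9 and 6 did so, and in the brain 5 and 4. Cenpf, a kinetochore protein, was at the floor of the deposited values on every array of the kidney at 12 h and of the brain at both times, and the checkpoint kinase gene Bub1 on every brain array at 6 h. A floor value gives no level, and fold changes of genes near it are understated.

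The genes also moved together from animal to animal in the spleen and lymph nodes, and less so in the jejunum, though they were high there. The deviations of 2 genes from their group means correlated across spleen arrays with a median Pearson r of 0.75 over the 741 gene pairs at 6 h (34 arrays) and 0.82 at 12 h (38 arrays). The medians were 0.67 at both times in the mesenteric node, 0.45 and 0.53 in the inguinal node and 0.31 and 0.32 in the jejunum. They were 0.04 and 0.12 in the kidney, 0.00 and 0.02 in the brain and 0.03 and 0.08 in blood. The pairs share arrays, and these values are descriptions, with no pairs of other genes taken as a background.

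Tissue markers were as labelled: 4 of 4 kidney markers in kidney, 6 of 6 brain markers in brain, 6 of 6 villus markers in jejunum and 7 of 7 B cell markers in spleen and nodes lay over 1 above the floor on every array. Some arrays stood apart. Pancreatic acinar markers had a summed level of 13.93 to 14.71 (log2) on the 6 h vehicle spleens of animals 52, 54, 56 and 57, against 7.71 to 9.31 on the other 4. Among the 12 h vehicle jejuna, those of animals 5, 6 and 7 had mean levels of Hoxb6 and Hoxb9 of 7.44, 7.81 and 7.90, above the 6 used as a limit. On the 12 h inguinal nodes, vehicle animal 1 had a mean level of the 39 genes of 7.5 where the other 3 lay at 6.56 to 6.83. The splicing factor transcript Tra2b fell with the place of an animal's number in runs of 12, in the 6 h spleens from 8.54 at places 1 to 4 to 7.89 at 5 to 8 and 6.60 at 9 to 12. Vehicle animals held places 1 to 8 and DMF 179.2 animals 5 to 12, so results are also given with place in the fit and within shared places.

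Across the 63 comparisons with vehicle, 24 had at least 1 of the 39 genes called, and 36 of the 39 genes were called somewhere. A gene is called where limma's Benjamini-Hochberg adjusted p over all 17097 genes is below 0.05, and comparisons of an organ and time share their vehicle arrays. E2f1, a transcription factor of S phase entry, Cdc6, the MCM loader, and Kif23, a kinesin of the midbody, were called in none. Pcna was called most often, in 11 comparisons of 3 organs, followed by Rrm2 and Tyms in 7 comparisons of 3 organs each. Mcm4 was called in 6 comparisons spread over 5 organs. Single comparisons called between 0 and 46% of all genes. How many of all genes were called in some comparison was not counted, so these pooled counts have no background beside them.

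**Figure D1:**
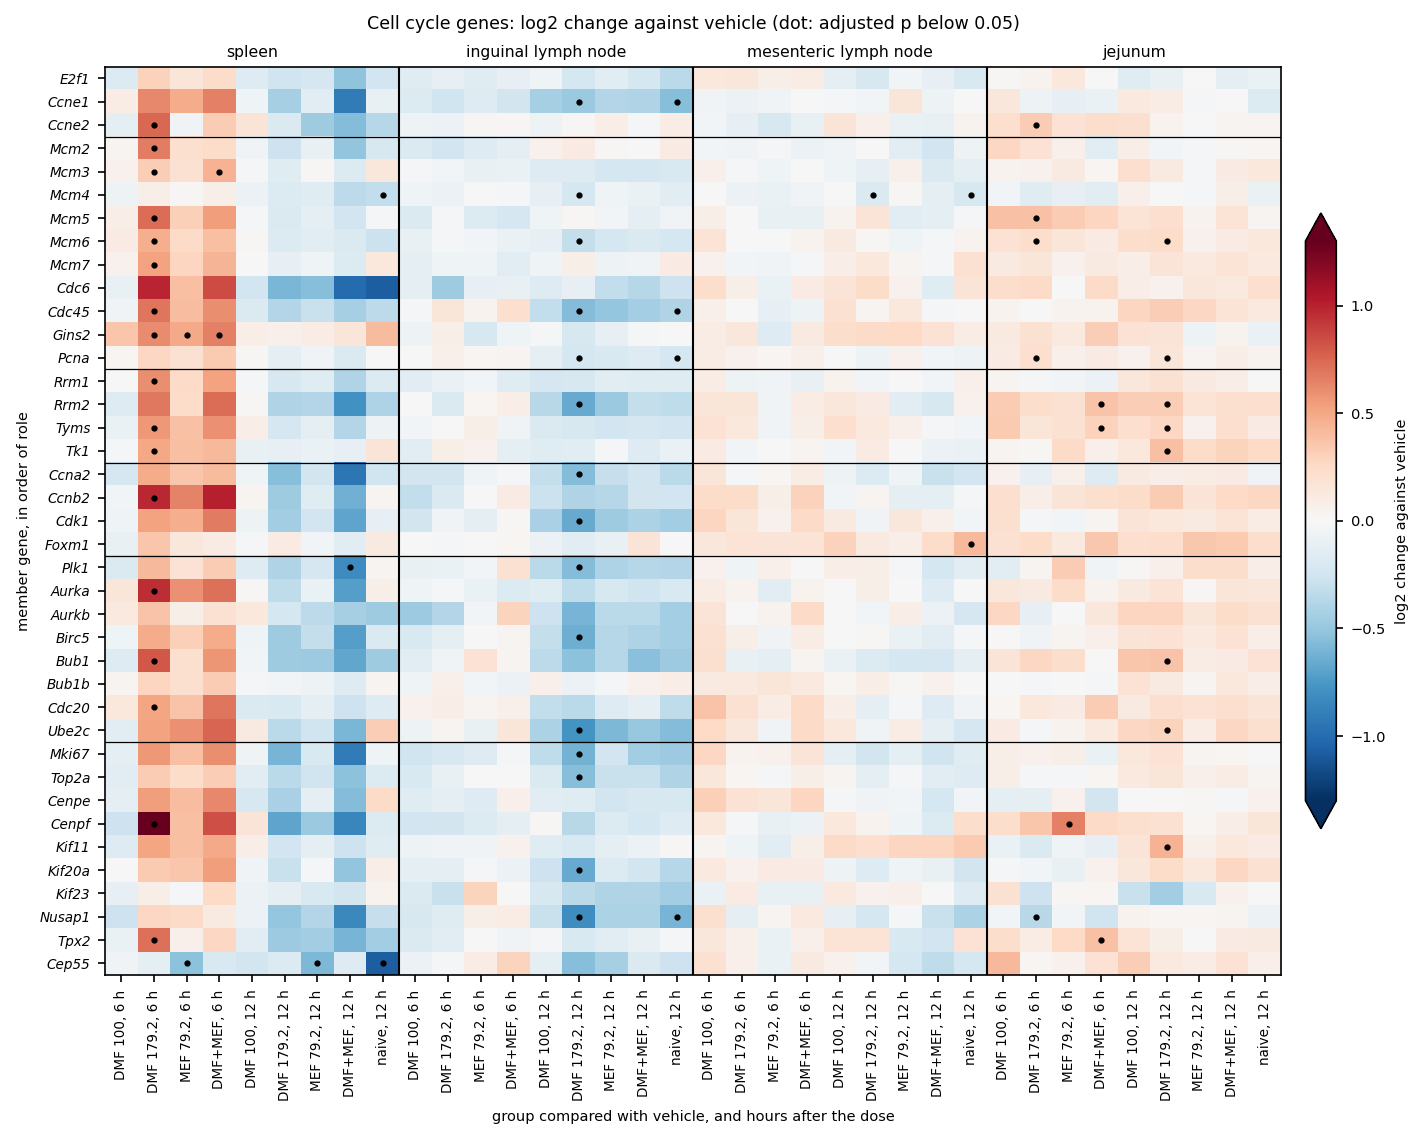
Log2 change of each of the 39 genes (vertical axis, grouped by role) in each dosed or naive group against vehicle (horizontal axis) in spleen, inguinal node, mesenteric node and jejunum, with dots at adjusted p below 0.05. The spleen column of DMF 179.2 at 6 h is above 0 for 38 of 39 genes, and the inguinal node column of DMF 179.2 at 12 h holds 15 dots, all lower.

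The widest change was in the spleen 6 h after DMF 179.2. There 17 of the 39 genes were higher than in vehicle and 0 lower (43.6% called), where 23% of all genes were called, 16.6% higher and 6.4% lower. The median change of the 39 genes was 0.52 (log2), with 38 above 0, and the median of all genes was near 0. A difference of 1 on this scale is a 2-fold change. The groups were 7 dosed and 8 vehicle arrays, and 28 of the 39 genes had an unadjusted p below 0.05.

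Of the 10 licensing and fork genes 7 rose, with a median change of 0.57. Mcm5, a subunit of the MCM helicase, had levels of 7.89 to 9.13 (median 8.63) in the dosed spleens and 7.41 to 8.47 (median 7.86) in vehicle. All but the lowest of the 7 dosed arrays lay above 7 of the 8 vehicle arrays, and 5 lay above all 8. The change was 0.73 (SE 0.18, limma adjusted p 0.00151), a 1.66-fold rise.

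Gins2, a subunit of the GINS complex that the helicase needs, spanned 6.31 to 7.06 (median 6.85) after DMF 179.2 and 5.82 to 6.58 (median 6.12) in vehicle, a change of 0.61 (SE 0.15, limma adjusted p 0.00152). Cdc45, the partner of GINS in that helicase, spanned 6.52 to 8.41 (median 7.01) against 6.31 to 6.80 (median 6.47), a change of 0.69 (SE 0.21, limma adjusted p 0.0124). Both groups overlapped in each gene, and the highest Cdc45 level was over 1 above the median of its group. The other MCM genes that rose were Mcm2 by 0.67, Mcm7 by 0.52, Mcm6 by 0.47 and Mcm3 by 0.32, with adjusted p of 0.00411 to 0.0314. Mcm4 differed by 0.07 and Pcna by 0.27, and neither passed.

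Among the nucleotide supply genes 3 of 4 rose. Rrm1, the large subunit of ribonucleotide reductase, rose by 0.61 (SE 0.19), the thymidylate synthase gene Tyms by 0.57 (SE 0.21) and the thymidine kinase gene Tk1 by 0.50 (SE 0.19), with limma adjusted p of 0.0164, 0.037 and 0.0431. Rrm2, the small subunit, differed by 0.68 and missed the threshold (adjusted p 0.0761). Of the G1 to S regulators, Ccne2 (cyclin E2) rose by 0.74 (SE 0.25, limma adjusted p 0.0259), whereas Ccne1 differed by 0.62 and E2f1 by 0.30 without passing. Cdc6 had one of the larger differences, 0.99 (SE 0.38), with levels of 6.29 to 9.51 (median 8.30) against 6.48 to 7.99 (median 7.0). Its dosed levels ran both below and above all vehicle levels, and its adjusted p was 0.0523.

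The mitotic genes had changes of similar size with a wider spread. Of the 4 mitotic entry genes 1 rose, Ccnb2 (cyclin B2), by 0.98 (SE 0.34, limma adjusted p 0.0268). Of the 8 kinase, checkpoint and destruction genes 3 rose: Aurka, the centrosomal Aurora kinase, by 0.96 (SE 0.31), Bub1 by 0.81 (SE 0.28) and Cdc20, an activator of the anaphase promoting complex, by 0.52 (SE 0.19). Of the 10 spindle and division genes 2 rose.

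Tpx2, which activates Aurka on the spindle, had levels of 7.70 to 9.52 (median 8.46) in dosed spleens and 7.6 to 8.29 (median 7.93) in vehicle. Its change was 0.72 (SE 0.21, limma adjusted p 0.00786). Cenpf spanned 4.25 to 8.22 (median 6.48) against 4.22 to 6.81 (median 5.23), a change of 1.29 (SE 0.45, limma adjusted p 0.0294) or 2.45-fold. For both genes the lowest dosed array lay within the vehicle range and the highest far above it. The proliferation antigen gene Mki67 differed by 0.56 (adjusted p 0.162), Top2a, the mitotic topoisomerase, by 0.33, and Cep55, an abscission protein, by -0.13. None of these 3 passed.

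The rise was uneven between animals. The mean level of the 39 genes on the 7 dosed spleens was 7.62 for animal 67, 9.16 for 68, 8.26 for 69, 8.12 for 70, 8.64 for 71, 8.0 for 72 and 8.87 for 74. The 8 vehicle spleens ran from 7.56 to 8.26. Animals 68, 71 and 74 lay above every vehicle animal, animal 69 level with the highest of them, and the other 3 within their range.

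**Figure D2:**
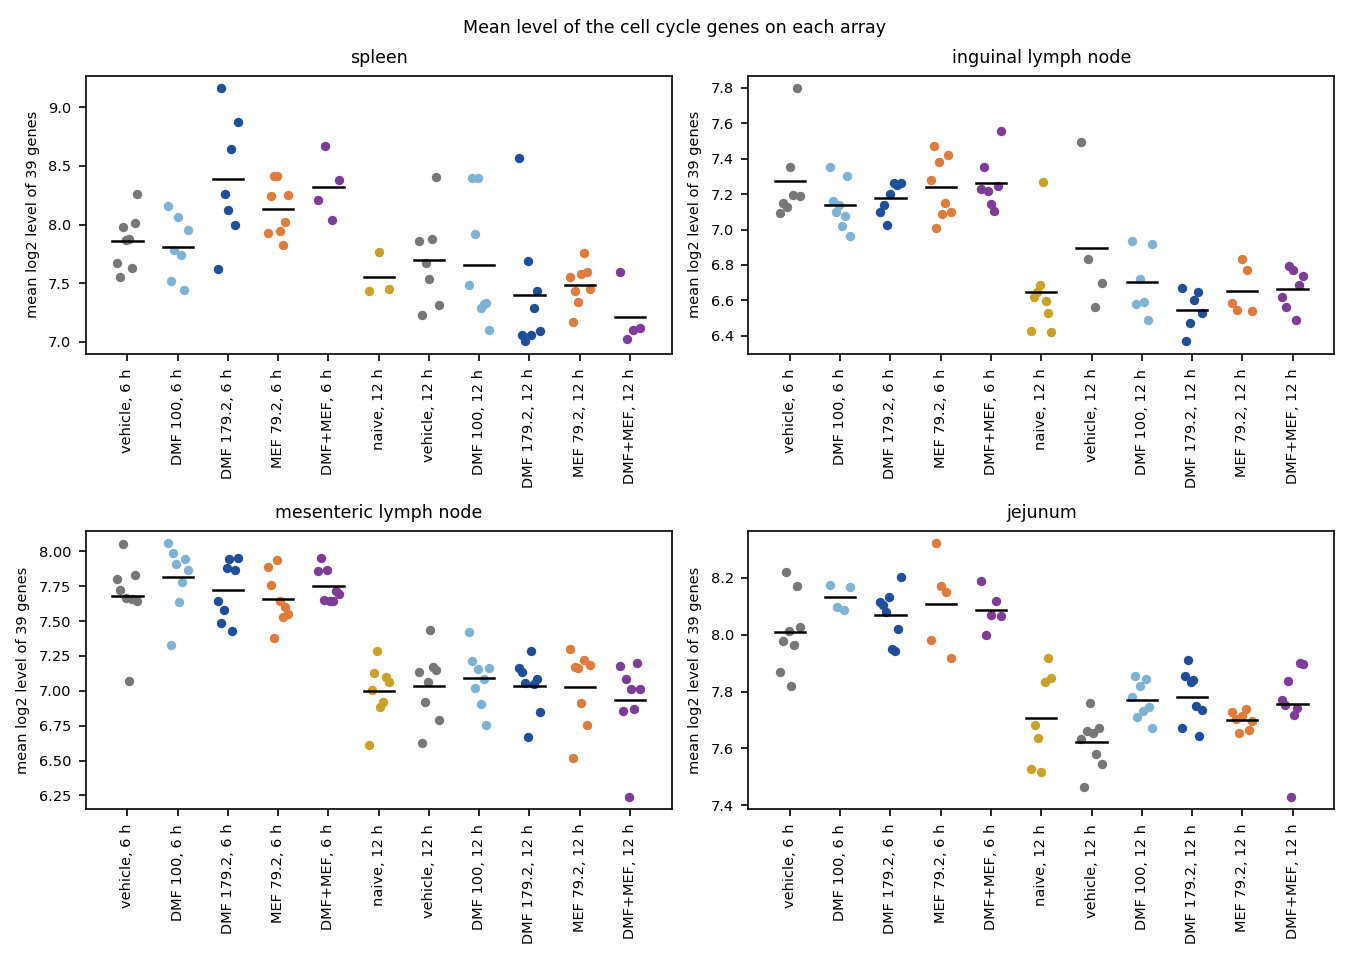
Mean log2 level of the 39 genes on each array (points) by treatment and time in spleen, inguinal node, mesenteric node and jejunum, with a bar at each group mean. The 6 h spleens after DMF 179.2 spread from 7.62 to 9.16, and vehicle animal 1 stands at 7.5 among the 12 h inguinal nodes.

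The count depended on single animals and on place. It ran from 6 (without DMF 179.2 animal 68) to 27 (without animal 67), with 9 without animal 74, 10 without animal 71 or vehicle animal 51, and 11 without vehicle animal 52 or 56. It was 4 with place in the fit (Cdc45, Gins2, Mcm2 and Mcm5), 9 after a further quantile normalisation, 9 in a fit of the 2 groups alone, and 0 within shared places (4 against 4 arrays, median change 0.38). Without the arrays holding acinar markers or albumin it was 5 (Gins2, Mcm2, Mcm5, Mcm6 and Mcm7), with a median of 0.41. Of all 17097 genes 2833 were higher and 1094 lower in the fit above. Without animal 68 they were 3036 and 1053, and with place 1444 and 751. They were 1593 and 1833 after quantile normalisation, 2081 and 868 in the 2 groups alone and 1415 and 686 without acinar or albumin arrays. Within shared places 0 of all genes were called, so the 0 there is not particular to the 39.

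Other genes of the same processes moved with them, in a comparison where 16.6% of all genes were called higher and 6.4% lower. Of 28 other DNA replication genes 16 were higher and 0 lower (median 0.36), led by Mcm10 at 1.00, Chaf1b at 0.82, Pole at 0.81 and Prim1 at 0.65. Of 36 other mitosis genes 20 were higher and 1, Hjurp, lower (median 0.57), led by Ccnf at 1.39, Hmmr at 1.13, Anln at 1.06 and Kif18a at 1.02. Of 15 D cyclins, G1 kinases, pocket proteins and other E2Fs 6 were higher (median 0.20), among them E2f7 at 0.90, and of 7 CDK inhibitors 1 was (Cdkn2b at 0.25).

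Markers of red cell precursors moved with the 39 genes in the same spleens. Of 9 measured erythroid markers 5 were higher after DMF 179.2 at 6 h (median 1.10), namely Klf1 by 1.82, Car1 by 1.16, Epor by 1.13, Alas2 by 1.11 and Hba-a1 by 0.24, and none of the 9 was at the floor. Their summed level was 14.62 to 15.36 in the dosed and 14.09 to 14.92 in the vehicle spleens. Across the 34 spleens at 6 h the deviation of the mean of Klf1, Epor, Car1 and Alas2 from its group went with that of the 39 genes at a Pearson r of 0.88 (Spearman 0.90, and r 0.86 without the 2 farthest arrays). At 12 h r was 0.90 over 38 spleens (Spearman 0.87, and 0.87 without the 2 farthest). For the summed level of all 9 markers r was 0.80 and 0.84. These 4 markers were chosen with results of these data known, and their part in the rise was not tested.

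Other cell types' marker sums were also set against the 39 genes across the same spleens. Of 6 mature neutrophil markers 5 were higher (median 0.68), with Mmp8 at 1.40 and Csf3r at 1.2. Their summed level was 13.51 to 14.21 in the dosed and 12.70 to 13.68 in the vehicle spleens, and its r with the 39 genes was 0.07 at 6 h and 0.41 at 12 h. T cell markers were lower for 2 of 6 (median -0.21; r -0.62 and -0.46), B cell markers higher for 1 and lower for 1 of 7 (r -0.49 and -0.48), and germinal centre markers lower for 1 of 7. Granulocyte precursor markers were higher for 2 of 8 (median 0.61), and plasma cell markers lower for 2 of 5. Acinar markers were lower for 3 of 6, and their r was -0.04 and 0.03.

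**Figure D3:**
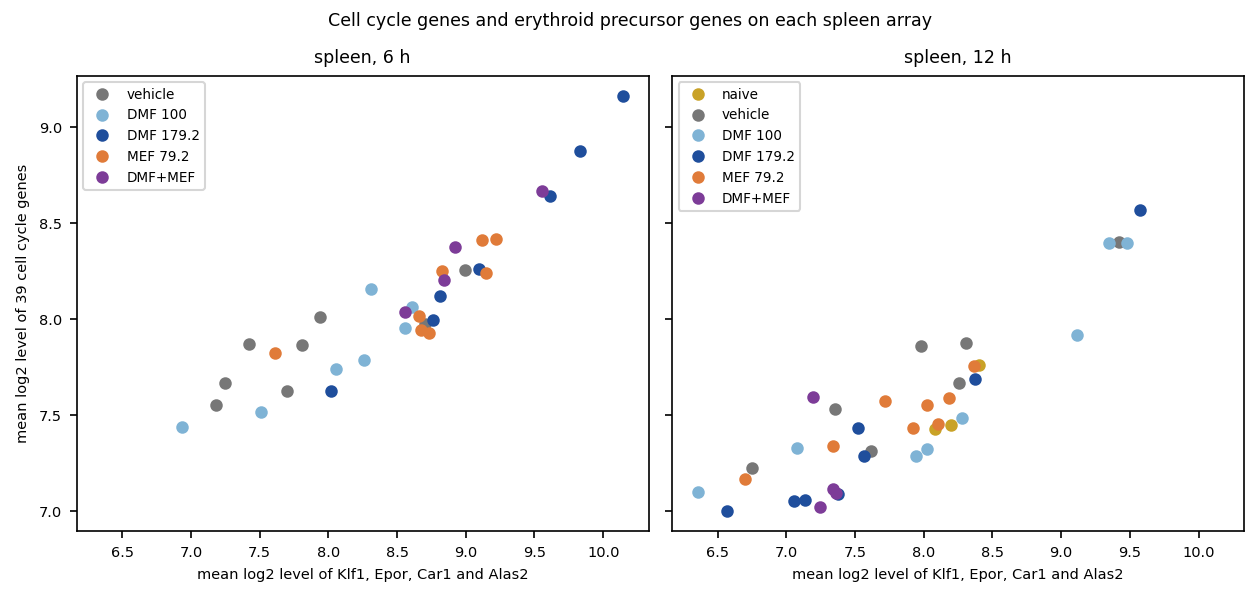
Mean log2 level of the 39 genes (vertical axis) against the mean of Klf1, Epor, Car1 and Alas2 (horizontal axis) on each spleen array, at 6 h and at 12 h, coloured by treatment. The points run along a rising band at both times, and DMF 179.2 arrays of 6 h reach 10.14 on the horizontal axis where vehicle reaches 9.0.

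The lower dose of DMF gave no call. After DMF 100 at 6 h the spleen had 0 of the 39 genes called (0.146% of all genes, 1 of the 39 with unadjusted p below 0.05), with a median change of -0.06. The doses were compared directly in the same limma fit: DMF 179.2 was above DMF 100 in 8 genes and below in 0, where 5.52% of all genes were called and 4.04% were higher. These 8 were Tpx2 (0.81, adjusted p 0.0193), Mcm5 (0.64, 0.0288), Bub1 (0.98, 0.0325), Cenpf (1.56, 0.0361), Mcm7 (0.46, 0.0426), Mcm2, Cdc45 and Ccne2.

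MEF, which carries an ethyl ester on a single acid group where DMF is methylated on both, raised Gins2 in the 6 h spleen by 0.49 (limma adjusted p 0.0392), with levels of 6.47 to 6.80 (median 6.60). Cep55 fell by 0.53 on the log2 scale (limma adjusted p 0.0299), from a vehicle median of 8.4 to 7.97. The other 37 genes did not pass, at a background of 3.5% and a median change of 0.28. With the mean of all probe sets, or with the 2 groups alone, 1 gene was called, and without acinar or albumin arrays 0. DMF 100 and MEF 79.2 differ in dose, so their median changes of -0.06 and 0.28 are given side by side only.

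DMF 100 with MEF 79.2 is equal to DMF 179.2 in summed mass. It raised Gins2 by 0.65 (limma adjusted p 0.0262) and Mcm3 by 0.45 (0.0403) in 4 spleens at 6 h, where 3.98% of all genes were called and 2.67% higher, with a median of 0.48 over the 39 genes. Neither passed without animal 83, 84 or 86, with place in the fit (median 0.27), after a further quantile normalisation, in the 2 groups alone or without acinar or albumin arrays. Of the 39 genes 18 had an unadjusted p below 0.05. Set directly against DMF 179.2, 0 of the 39 genes were called and 0 had an unadjusted p below 0.05 (5.11% of all genes called by limma). The intervals were wide: the 95% interval of the difference was -0.62 to 0.24 for Mcm5, -0.87 to 0.00 for Mcm2, -0.96 to 0.06 for Tpx2, -1.55 to 0.64 for Cenpf and -0.32 to 0.40 for Gins2. So a difference of the size of the effect itself lies within several of them.

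At 12 h after DMF 179.2 the spleen had 0 of the 39 genes called by limma (0.474% of all genes, 4 of the 39 with unadjusted p below 0.05), and the median change was -0.27. No alternative called any of the 39. With place 17 had such a p (median -0.43), and without acinar or albumin arrays 18 (median -0.42). In the 2 groups alone and within shared places 0 did (medians -0.27 and -0.23). Animal 17 of this group stood apart, at a mean level of 8.57 where the others lay at 7.0 to 7.69. The difference between the 12 h and the 6 h effect was tested itself and was called for 8 genes, all lower at 12 h, where 6.09% of all genes were called and 3.84% lower. Its median was -0.81, with 0 of 39 above 0. Tpx2 had the smallest p, -1.19 (SE 0.30, limma adjusted p 0.00926), followed by Mcm2 at -0.94, Mcm5 at -0.91 and Cdc45 at -1.08, then Bub1 at -1.27, Mcm6 at -0.64, Mcm7 at -0.63 and Cenpf at -1.98. With place in the fit 5 were called. The same contrast had 0 called for DMF 100, MEF and the combination, where 0% of all genes were called in limma and 0, 4 and 32 of the 39 had an unadjusted p below 0.05. The arrays of the 2 times were normalised apart, so the contrast compares differences from vehicle and not levels.

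Other spleen groups of 12 h had few calls. MEF lowered Cep55 again, by -0.58 (limma adjusted p 0.0425), from a vehicle median of 8.04 to 7.49, where 0.924% of all genes were called. That call was lost in the 2 groups alone, within shared places, with the mean of all probe sets and without acinar or albumin arrays. In the 3 naive spleens Cep55 was at 6.32, 6.91 and 7.52, all under the lowest vehicle level of 7.56, a change of -1.07 (SE 0.20, limma adjusted p 8.83e-05). Mcm4 was also lower in naive spleens, by -0.32 (adjusted p 0.0479) with no overlap, at a background of 18.3%. The count of 2 was 1 without naive animal 41 or 47 and 0 in the 2 groups alone or within shared places.

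After the combination at 12 h, Plk1, a kinase of mitotic entry and exit, was lower by -0.82 (limma adjusted p 0.0418), with levels of 5.30 to 6.57 in 4 spleens against 6.22 to 7.01 in vehicle (3.36% of all genes called). The groups overlapped, and the call was lost without animal 34, 35 or 36, with place in the fit, in the 2 groups alone and without acinar or albumin arrays. The median over the 39 genes was -0.52, and 16 had an unadjusted p below 0.05. DMF 100 at 12 h had 0 called, at 0.0175% of all genes.

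In the inguinal lymph node genes were called at 12 h and not at 6 h. At 6 h none of the 4 dosed groups had a called gene among the 39 (0.0292, 0.234, 0.00585 and 0.433% of all genes called after DMF 100, DMF 179.2, MEF and the combination, with 2, 2, 2 and 1 of the 39 at an unadjusted p below 0.05 in limma). At 12 h after DMF 179.2, 15 of the 39 genes were lower and 0 higher (38.5%), where 12.3% of all genes were called and 4.45% lower. The median change was -0.33, beside the -0.27 of the 12 h spleen, where 2 of 39 genes lay above 0 and none passed. The groups were 6 dosed and 4 vehicle nodes. The 15 genes came from all 6 roles: 4 of 10 licensing and fork genes, 1 of 3 G1 to S regulators, 1 of 4 nucleotide supply genes, 2 of 4 mitotic entry genes, 3 of 8 kinase, checkpoint and destruction genes and 4 of 10 spindle genes.

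Kif20a, a kinesin of the central spindle, had levels of 5.67 to 6.51 (median 6.23) after DMF 179.2 and of 7.31, 6.71, 6.46 and 6.81 in vehicle animals 1, 6, 7 and 8. It fell by 0.66 on the log2 scale (SE 0.17, limma adjusted p 0.00778). Cdc45 was at 4.78 to 4.92 (median 4.84) against 5.92, 5.25, 5.19 and 5.25 in the same vehicle animals, and fell by 0.56 (SE 0.15, limma adjusted p 0.00796). The groups did not overlap for Cdc45, and for Kif20a 1 vehicle node lay within the dosed range.

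Ccne1 (cyclin E1) was at 5.94 to 6.52 (median 6.27) against 7.17, 6.80, 6.32 and 6.71, and fell by 0.48 (SE 0.13, limma adjusted p 0.0109). Nusap1, a microtubule binding protein of the spindle, was at 7.03 to 7.57 (median 7.28) against 9.10, 8.23, 7.6 and 7.37. It fell by 0.80 (SE 0.23, limma adjusted p 0.0132), which is 1.75-fold. Vehicle animal 1 is the highest node for each of these 4 genes.

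The other licensing and fork genes that fell were Mcm4 by 0.23, Mcm6 by 0.31 and Pcna by 0.23. Mcm4 and Mcm6 had no overlap between groups. Mcm2, Mcm5 and Mcm7, which rose in the 6 h spleen, differed by 0.10, 0.01 and 0.08 here and did not pass. Rrm2 fell by 0.65, Ccna2 (cyclin A2) by 0.57, Cdk1 by 0.66, Ube2c, an enzyme of the anaphase promoting complex, by 0.78, Birc5 (survivin) by 0.63, Plk1 by 0.56, Top2a by 0.55 and Mki67 by 0.61, with limma adjusted p between 0.0215 and 0.0483.

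The fall in the inguinal node rested on vehicle animal 1. Without that array 0 of the 39 genes were called after DMF 179.2, with a median of -0.15. Calls over all genes fell too, from 1349 higher and 761 lower with that array to 134 and 163 without it. Leaving out DMF 179.2 animal 20 gave 7. With place in the fit 5 were called (Ccne1, Cdc45, Kif20a, Mcm6 and Pcna), and in a fit of the 2 groups alone, or within shared places, 0. Of all genes 408 were higher and 394 lower with place, 101 and 56 in the 2 groups alone, and 0 were called within shared places.

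Naive nodes at 12 h had 4 lower genes of the 39 against the same vehicle nodes: Ccne1 by -0.55 (limma adjusted p 0.00203), Pcna by -0.23 (0.013), Nusap1 by -0.61 (0.0438) and Cdc45 by -0.39 (0.0452), where 14.5% of all genes were called and 6.14% lower. Without vehicle animal 1 it was 0 (median -0.06), and without naive animal 45 it was 13, without vehicle animal 7 or 8 it was 8, and without naive animal 41, 44, 47 or 48 it was 2. Of all genes 1436 were higher and 1049 lower in naive nodes, and 307 and 392 without vehicle animal 1. The remaining 12 h groups had 0 called in limma: DMF 100 at 1.27% of all genes (3 of the 39 with unadjusted p below 0.05), MEF at 1.05% (8) and the combination at 3.53% (11). Without vehicle animal 7 these counts were 1, 3 and 3, and without vehicle animal 8 they were 1 for MEF and for the combination.

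The 12 h effect of DMF 179.2 in the inguinal node differed from its 6 h effect for 2 genes, where 3.83% of all genes were called. These were Cdc45 at -0.72 (limma adjusted p 0.0213) and Pcna at -0.29 (0.0466). Among other genes of the pathway at 12 h, 3 of 28 replication genes were lower (Dut by -0.53, Slbp by -0.47 and Dbf4 by -0.36). Of 36 mitosis genes 1 was lower (Kif15 by -0.19). Of all genes 12.3% were called at 12 h after DMF 179.2 and 4.45% were lower. Of the 15 G1 genes Ccnd3 was higher by 0.68, and E2f2 by -0.61 and Rbl1 by -0.40 were lower.

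Of 7 B cell markers in these nodes 3 were higher (Fcer2a by 0.49, Cr2 by 0.22 and Cd22 by 0.20), with a summed level of 13.90 to 14.03 in the dosed and 13.78 to 14.05 in the vehicle nodes. The summed germinal centre level was 12.30 to 12.37 in the dosed and 12.21 to 12.42 in the vehicle nodes, with Bcl6 higher by 0.38 and Mybl1 lower by -0.08 of 7. Of 9 erythroid markers 0 passed, and Rhag was at the floor on every array. The part of these cells in the fall was not tested.

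**Figure D4:**
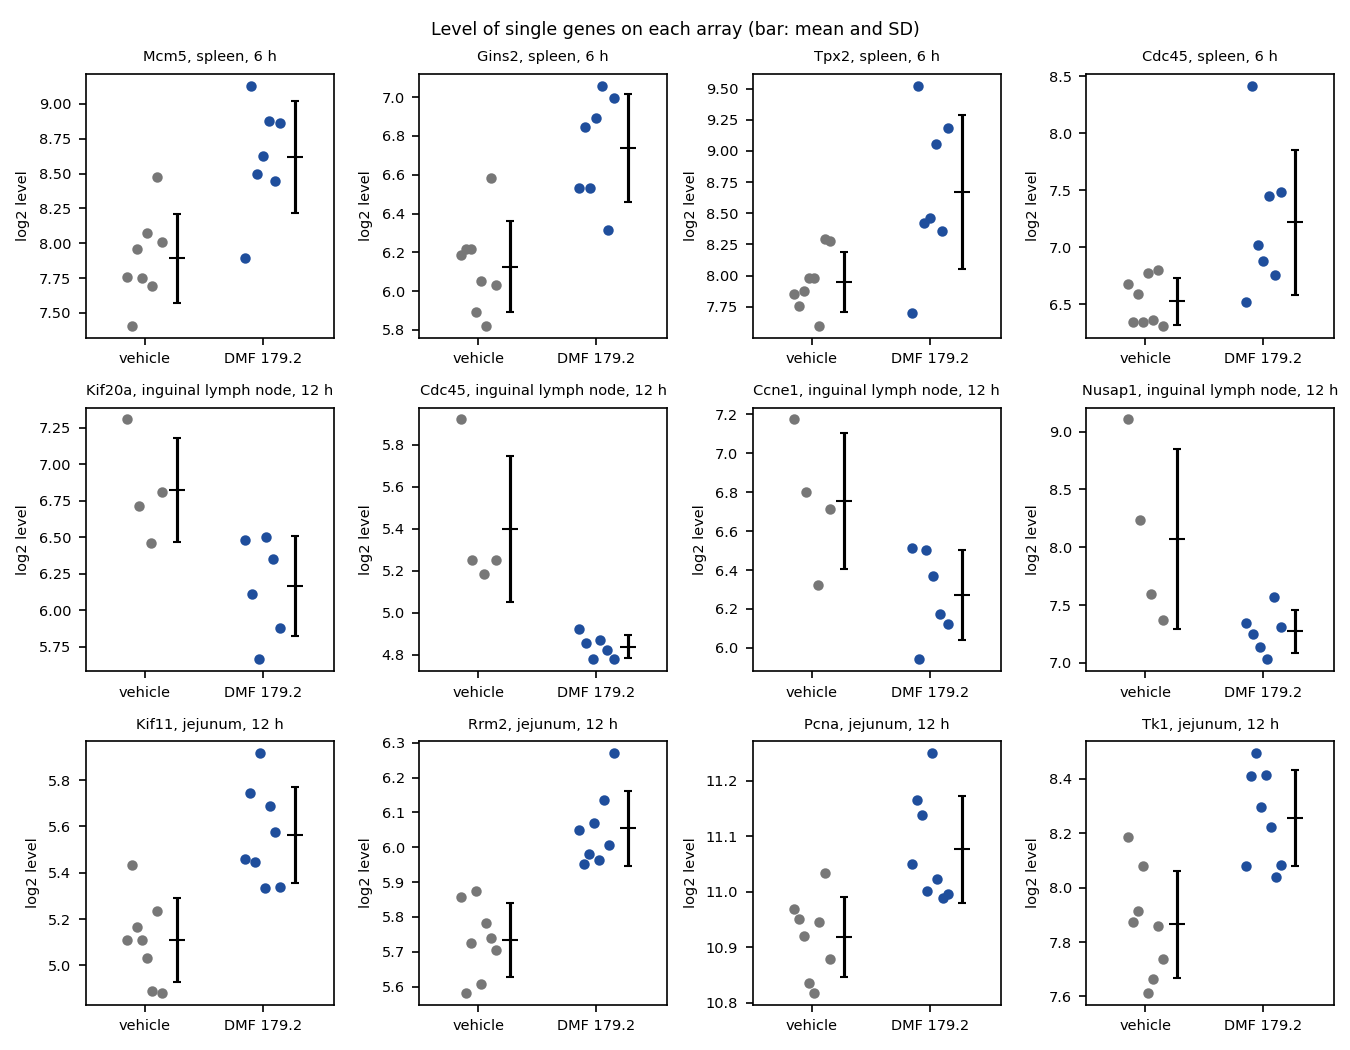
Log2 level on each array (points) with group mean and SD (bar) in vehicle and DMF 179.2 for Mcm5, Gins2, Tpx2 and Cdc45 in the 6 h spleen, Kif20a, Cdc45, Ccne1 and Nusap1 in the 12 h inguinal node, and Kif11, Rrm2, Pcna and Tk1 in the 12 h jejunum. Cdc45 is higher after DMF 179.2 in the spleen panel and lower in the inguinal node panel, where the groups do not overlap.

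The mesenteric node changed little. At 6 h 0 of the 39 genes were called in any dosed group by limma (0.0234, 0.392, 0.00585 and 0.181% of all genes called, with 1, 0, 1 and 0 of the 39 at an unadjusted p below 0.05). At 12 h after DMF 179.2, Mcm4 was lower by -0.19 (limma adjusted p 0.0272), with levels of 9.28 to 9.60 (median 9.48) against 9.44 to 9.89 (median 9.66). It was the only gene of the 39 called, where 13.8% of all genes were, and with place in the fit, in the 2 groups alone or within shared places 0 were called. With the mean of all probe sets 3 were lower. Naive nodes had Mcm4 lower by -0.21 (limma adjusted p 0.0104) and Foxm1 higher by 0.43 (0.0102), with Foxm1 at 4.70 to 5.45 (median 4.97) against 4.12 to 5.15 (median 4.61) and 24.4% of all genes called. The shares of the 39 were below the background in both. Foxm1 was read from 1 of its 4 probe sets. In naive nodes 0 of the 39 were higher with the mean of all probe sets, in the 2 groups alone or within shared places. With place in the fit 2 were. DMF 100, MEF and the combination had 0 called at 12 h (0.0819, 0.602 and 4.24% of all genes, with 2, 1 and 2 of the 39 at an unadjusted p below 0.05 in limma).

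In the jejunum single genes of the 39 rose after DMF 179.2 at both times. At 6 h 4 of the 39 were higher and 1 lower, where 8.62% of all 17097 genes were called (958 higher and 515 lower). The median change of the 39 was 0.05, with 23 above 0, and -0.03 after a further quantile normalisation. The 6 h calls are read as single genes only. Pcna rose by 0.21 (SE 0.05, limma adjusted p 0.00107), from levels of 11.10 to 11.40 (median 11.30) in vehicle to 11.37 to 11.57 (median 11.46). The ranges met only at their ends. Mcm5 rose by 0.38, Ccne2 by 0.33 and Mcm6 by 0.23 (adjusted p 0.0411 to 0.0433), and Nusap1 fell by 0.36 (0.0117).

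At 12 h 8 of the 39 were higher and 0 lower after DMF 179.2 (20.5%), where 7.4% of all genes were called and 4.74% higher, with 8 arrays in each group and a median change of 0.17. Of the 4 nucleotide supply genes 3 rose (median 0.29), of 10 licensing and fork genes 2, of 8 kinase, checkpoint and destruction genes 2, of 10 spindle genes 1, and of 3 G1 to S and 4 mitotic entry genes 0. Kif11, the motor that pushes spindle poles apart, was at 5.33 to 5.92 (median 5.52) against 4.88 to 5.43 (median 5.11), a rise of 0.46 (SE 0.09, limma adjusted p 0.000815). Rrm2 was at 5.95 to 6.27 (median 6.03) against 5.58 to 5.87 (median 5.73), a rise of 0.32 (SE 0.08, limma adjusted p 0.0105). The groups overlapped for Kif11 and did not for Rrm2.

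Tk1 was at 8.04 to 8.50 (median 8.26) against 7.61 to 8.19 (median 7.87), a rise of 0.39 (limma adjusted p 0.0274), and Tyms rose by 0.27. Pcna rose by 0.16, Mcm6 by 0.24, Ube2c by 0.28 and Bub1 by 0.37. Kif23 had the largest difference the other way, -0.46, and did not pass (adjusted p 0.0705). The time contrast was called for Kif11 alone among the 39, at 0.65 (SE 0.13, limma adjusted p 0.00196), where 3.15% of all genes were called.

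The 12 h count was 4 to 9 when single arrays were left out, 4 without DMF 179.2 animal 19 or 21 or vehicle animal 6 and 5 without DMF 179.2 animal 18 or 22 or vehicle animal 5. It was 4 after a further quantile normalisation, 5 with place, 1 within shared places (Rrm2) and 2 without the arrays holding distal Hox genes (Kif11 and Tyms). The 6 h count of 5 was 3 with place, 2 after quantile normalisation, 1 in a fit of the 2 groups alone and 0 within shared places. It was 2 without DMF 179.2 animal 68, 70, 73 or 74 or vehicle animal 51 or 52, and 3 without vehicle animal 54 or 55.

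Of the other pathway genes at 12 h, 2 of 28 replication genes were higher (Gins1 by 0.53 and Rfc5 by 0.25) and 6 of 36 mitosis genes (with Spc24 at 0.43, Pbk at 0.36, Cenpk at 0.33 and Melk at 0.31). At 6 h 7 replication genes were higher, led by Pold1 at 0.50, Mcm10 at 0.46 and Pole at 0.40, and 1, Slbp, was lower. At that time 3 mitosis genes were higher (Hmmr by 0.57, Ccnf by 0.50 and Anln by 0.39). Of all genes 7.4% were called at 12 h, with 4.74% higher, and 8.62% at 6 h. Of 8 crypt markers at 12 h Axin2 was lower by -0.74, and at 6 h Lgr5 by -0.81. The summed crypt level was 12.98 to 13.28 after DMF 179.2 and 12.96 to 13.42 in vehicle at 12 h. Of 6 villus markers 3 were higher at 12 h, Apoa4 by 1.75, Fabp1 by 1.34 and Alpi by 0.23, and of 4 distal Hox genes Hoxb6 and Hoxb9 were lower by -1.75 and -2.08. The part of the sampled gut stretch in these changes was not tested.

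Other jejunum groups had 0 to 3 genes called. MEF raised Cenpf at 6 h by 0.66 (limma adjusted p 0.0171), to 6.75 to 7.49 (median 7.04) in 5 arrays from 5.90 to 6.75 (median 6.54), where 1.19% of all genes were called. That call was lost without animal 80 or 81, in the 2 groups alone, within shared places and with the mean of all probe sets. The combination raised Rrm2 by 0.37 (limma adjusted p 0.00899), Tpx2 by 0.38 (0.016) and Tyms by 0.30 (0.0494) at 6 h, where 6.57% were called, and all 3 calls were lost without animal 86. With place in the fit, or in the 2 groups alone, 0 were called, and after a further quantile normalisation 1. At 12 h DMF 100, MEF, the combination and naive had 0 called (0.632, 0.813, 3.45 and 5.44% of all genes, with 12, 4, 13 and 5 of the 39 at an unadjusted p below 0.05 in limma), and so had DMF 100 at 6 h (2.61%, with 6), whose count was 1 without animal 59 and 2 without animal 60. The 12 h medians were 0.17 after DMF 100, 0.06 after MEF, 0.13 after the combination and 0.09 in naive, with 37, 32, 36 and 31 of the 39 above 0, beside 0.17 and 35 after DMF 179.2. Set directly against DMF 100 at 12 h, DMF 179.2 had 0 of the 39 called by limma (0.152% of all genes, with 3 of the 39 at an unadjusted p below 0.05) and a median difference of 0.01. Against DMF 179.2 at 12 h the combination had 0 called (0.0526% of all genes), with Kif11 lower by -0.32 (95% interval -0.50 to -0.13) before adjustment.

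In the kidney, where most of the 39 genes lie below the median gene, Rrm2 rose at 6 h in all 4 dosed groups. It was at 3.77 to 4.01 (median 3.83) in the 7 vehicle kidneys. It reached 4.10 to 4.47 (median 4.19) after DMF 100, 3.93 to 4.77 (median 4.25) after DMF 179.2, 4.25 to 4.65 (median 4.33) after MEF and 4.25 to 4.76 (median 4.31) after the combination. The changes were 0.36, 0.47, 0.52 and 0.57, with limma adjusted p of 0.00814, 3.02e-05, 2.37e-05 and 2.71e-06. DMF 179.2 was the group that overlapped with vehicle. The 4 comparisons share the vehicle kidneys.

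After DMF 179.2 at 6 h 12 of the 39 genes were higher and 1 lower in the kidney (33.3%), where 25% of all genes were called and 15% higher. All 4 mitotic entry genes were among them: Ccnb2 by 0.47, Foxm1 by 0.29, Ccna2 by 0.50 and Cdk1 by 0.36. Birc5, which sits on the inner centromere with Aurkb, was at 6.51 to 7.92 (median 6.79) against 5.75 to 6.32 (median 6.03), a rise of 0.89 (limma adjusted p 0.000583) with no overlap. Tpx2 was at 3.0 to 5.07 (median 3.93) against 2.64 to 3.32 (median 3.05), a rise of 0.88 (limma adjusted p 0.000127) with overlap. Mki67 rose by 0.56, Mcm2 by 0.44 and Mcm6 by 0.31, and Mcm4 fell by 0.17. With place in the fit 8 of the 39 genes were called, in the 2 groups alone 7, and within shared places 0.

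DMF 179.2 stood above DMF 100 in the 6 h kidney for Tpx2 (0.74), Ccnb2 (0.39), Mcm2 (0.31) and Ccne2 (0.18), with 0 lower, where 9.15% of all genes were called by limma. After DMF 100 against vehicle Rrm2 was the only one of the 39 called, at 4.07%. MEF raised 4 genes at 6 h, Rrm2, Pcna by 0.23, Cdc45 by 0.23 and Mcm2 by 0.33, with 0 lower (5.9% of all genes called). The combination raised 8 with 0 lower (13.2% called and 6.25% higher), Rrm2, Birc5 by 0.85, Tpx2 by 0.69, Mcm2 by 0.33, Pcna by 0.24, Cdc45 by 0.21, Kif11 by 0.17 and Mcm5 by 0.13. The count of 8 was 5 without vehicle animal 51 or 55. Against DMF 179.2 at equal summed mass the combination was higher for Kif20a by 0.26 and Tyms by 0.17 and lower for Ccne2 by -0.18, at a background of 13.2%.

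In the dosed groups of 12 h the kidney genes that rose were of replication and nucleotide supply, and differences between roles were not tested. DMF 179.2 raised Tk1 by 0.48 (limma adjusted p 0.0122), Tyms by 0.21, Pcna by 0.17 and Mcm6 by 0.30, where 7.25% of all genes were called. Tk1 was at 4.46 to 5.14 (median 4.80) against 4.11 to 4.50 (median 4.27). The count of 4 was 2 without DMF 179.2 animal 22 or 23 or vehicle animal 1, 4 or 7. It was 1 with place in the fit and in the 2 groups alone, and 0 within shared places. MEF raised Gins2 by 0.47 (limma adjusted p 0.00248), Tk1 by 0.45, Pcna by 0.20 and Tyms by 0.20, which is a smaller share than the background of 17.5%. DMF 100 had 0 called (1.38%, with 2 of the 39 at an unadjusted p below 0.05 in limma).

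The combination raised and lowered genes of different roles in the 12 h kidney, 3 of each, where 11% of all genes were called. Pcna was at 9.70, 9.5, 9.63 and 9.60 in its 4 kidneys and rose by 0.29 (limma adjusted p 0.00125), and Tk1 was at 5.22, 4.69, 4.84 and 4.61 and rose by 0.54 (0.0188). Neither overlapped with vehicle, and Tyms rose by 0.20. Ccna2 was at 4.29, 4.86, 4.19 and 4.06 against 4.80 to 5.93 (median 5.18) in vehicle and fell by 0.92 (SE 0.21, limma adjusted p 0.0015), which is 1.89-fold. Mki67 fell by 0.78 (0.0153) and Birc5 by 0.72 (0.0413). The count of 6 was 3 without animal 35. For Ccna2 1 of the 4 kidneys, that of animal 34, lay within the vehicle range. Set against DMF 179.2 at 12 h the combination had 0 of the 39 genes called (0.433% of all genes), and set against DMF 100 it had Mcm6 lower by -0.42 (limma adjusted p 0.035), at 4.26%.

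**Figure D5:**
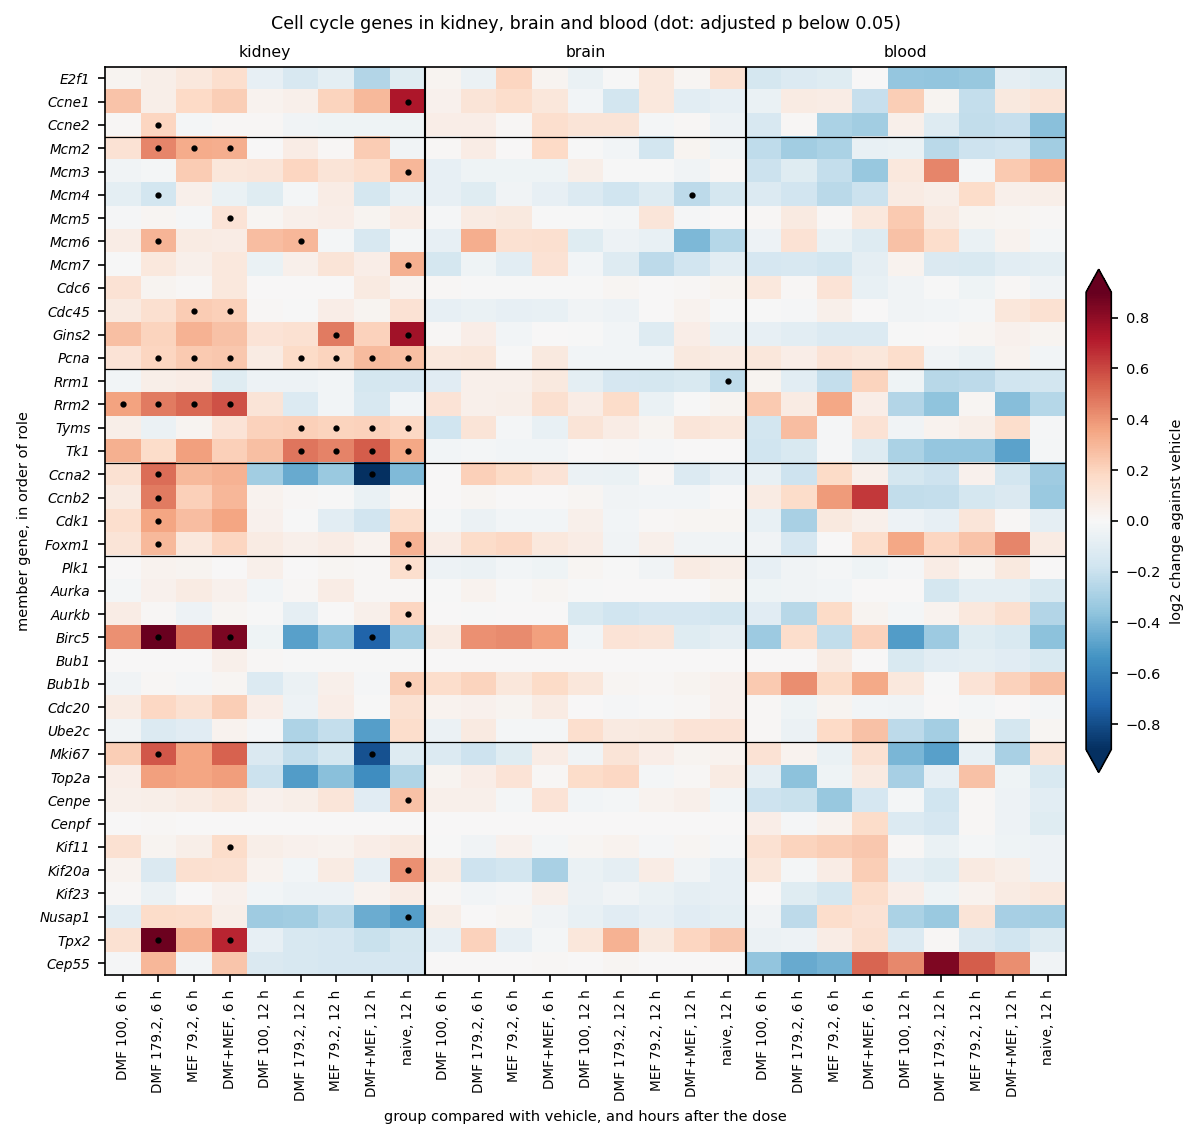
Log2 change of each of the 39 genes (vertical axis, grouped by role) in each dosed or naive group against vehicle (horizontal axis) in kidney, brain and whole blood, with dots at adjusted p below 0.05. Rrm2 carries a dot in all 4 dosed kidney columns of 6 h, and whole blood carries none.

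Kidney effects of 6 h and 12 h differed for several of these genes by the direct limma test. After DMF 179.2 the 12 h effect was below the 6 h effect for Birc5 (-1.37, adjusted p 0.000875), Rrm2 (-0.59, 0.000973), Tpx2 (-1.02), Ccna2 (-0.96) and Ccne2 (-0.23), and above it for Tyms (0.26), where 7.14% of all genes were called. After MEF it was below for Rrm2 (-0.55, adjusted p 0.00366; 7.38%). After the combination it was below for Rrm2 (-0.72), Birc5 (-1.57), Ccna2 (-1.23) and Mki67 (-1.31), at 2.8%. DMF 100 had 0 called at 0.404%.

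Naive kidneys at 12 h had 13 of the 39 genes higher and 1 lower than vehicle (35.9%), which is under the 46% of all genes called there. Gins2 at 0.76 and Ccne1 at 0.73 had the largest rises, and Nusap1 fell by 0.50. Among other pathway genes at 6 h after DMF 179.2, 7 of 28 replication genes were higher and 3 lower (Dbf4 by 0.89, Pole2 by 0.51 and Mcm10 by 0.49 among the higher), and 8 of 36 mitosis genes were higher and 1 lower (Prc1 by 0.76, Pbk by 0.66 and Cdca3 by 0.64). The 9 called mitosis genes of 36 are the same share as the 25% of all genes called there. In the 12 h kidneys of the combination, where 11% of all genes were called, the same list had 2 higher and 3 lower. The lower ones were Prc1 by -1.01, Pbk by -0.94 and Ect2 by -0.74, and the CDK inhibitor Cdkn1a was higher by 0.84. Erythroid markers were higher for 3 of 9 at 6 h after DMF 179.2, Tfrc by 0.72, Klf1 by 0.33 and Epor by 0.26, with a summed level of 12.93 to 13.22 against 12.37 to 13.01 in vehicle and Rhag and Hemgn at the floor. Their part in the kidney values was not tested.

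Brain and blood had almost no calls among the 39 genes. In the brain at 12 h Mcm4 was lower after the combination by -0.24 (limma adjusted p 0.0241), at 6.47 to 6.80 (median 6.64) against 6.81 to 7.12 (median 6.87) with no overlap, where 1.45% of all genes were called. Naive brains had Rrm1 lower by -0.23 (0.0416; 2.56%). The other 7 brain comparisons had 0 called by limma (0.0117, 7.2, 0.123 and 0.105% of all genes at 6 h, with 3, 6, 3 and 7 of the 39 at an unadjusted p below 0.05; 0.0234, 1.31 and 0.0877% at 12 h for DMF 100, DMF 179.2 and MEF, with 2, 7 and 5). In blood all 9 comparisons had 0 called by limma, with 0 to 6 of the 39 at an unadjusted p below 0.05. Of all genes 0, 0.0702, 0 and 0.00585% were called in blood at 6 h after DMF 100, DMF 179.2, MEF and the combination, and 0.0351, 0.322, 0.00585 and 0.216% at 12 h, with 0.269% in naive.

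After DMF 179.2 Cdc45 changed by 0.69 in the 6 h spleen and by -0.56 in the 12 h inguinal node, and Mcm6 by 0.47, -0.31, 0.24 (12 h jejunum) and 0.31 (6 h kidney). These 2 genes were the ones called in both spleen and inguinal node, 2 of 17 and 2 of 15. Those values differ in time as well as in organ: in the 12 h spleen Cdc45 differed by -0.38 (limma adjusted p 0.514) and Mcm6 by -0.18 (0.735), and neither passed. Mcm4, a subunit of the same helicase as Mcm2, Mcm3, Mcm5, Mcm6 and Mcm7, did not rise in any comparison with vehicle: it was lower in its 6 called comparisons, in spleen, both nodes, kidney and brain, by -0.17 to -0.32. In the 4 of these with a dosed group the call was lost in the 2 groups alone and within shared places. With place in the fit it was lost in both nodes and the kidney, whereas in the brain 1 of the 39 genes was still called. Differences between organs were not tested, since organs were fitted apart.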

How the data were processed

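Affymetrix mouse array values were deposited by the authors as log2 levels of 45141 probe sets on 550 arrays, normalised separately for each organ and time. The submitters' processing notes name RMA, GCRMA, R 2.11.1 and limma 3.4.5; which step each made is not given in the sources used here. Arrays of the combination group carry a source name with DMF alone, and their titles were followed. Probe sets annotated to a single gene were used (28898), the one of highest mean per gene and organ. For each organ limma 3.58.1 in R 4.3.3 was fitted over all groups of both times (lmFit, contrasts.fit, eBayes), with Benjamini-Hochberg adjustment over 17097 genes and calls below 0.05. The fit was run on simulated data with known changes and independent noise for each gene. That simulation held no shared movement of genes and no effect of place, so it says nothing of these. Tables were made with Python 3.11.15. The number of arrays limits the precision.

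The 40 genes, the other gene lists and the tests were chosen with earlier results of these data known. In a comparison with calls, genes of smallest p were named first, up to 5 for each role; of the other lists up to 4 called genes, largest change first. Genes given as not called were named to account for the 39, and the comparison of Mcm4 over organs was chosen after its values were seen. The alternatives were a further quantile normalisation, dim genes left out, the mean of all probe sets, eBayes with trend and robust variance, place as a covariate, only the groups compared, shared places, left-out arrays, and the promoter window with the 50 bases after the start. The same animal number at a time marks the same animal in different organs, and treatment groups share no number.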

Additional observations from a re-analysis of the deposited data

Results flagged for a closer look

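The mean level of the 39 genes set 1 array apart from its group in 10 of the 76 groups of 4 to 10 arrays tested, by the gap to its nearest neighbour over the range of the group. Chance alone marks about 1 group in 20. In the spleen at 12 h these were animal 17 of DMF 179.2, highest at 8.57 where the other 7 lay at 7.0 to 7.69, and animal 33 of the combination, highest at 7.6. In the kidney they were animal 68 of DMF 179.2 at 6 h, highest at 5.10 where the others lay at 4.69 to 4.86, and animal 17 of DMF 179.2 at 12 h, highest at 4.40. In the inguinal node they were vehicle animal 57 at 6 h, highest at 7.80, and naive animal 45 at 12 h, highest at 7.27. In the mesenteric node they were vehicle animal 55 at 6 h, lowest at 7.07, and animal 36 of the combination at 12 h, lowest at 6.24. Animal 36 was also the lowest jejunum of its group, at 7.43. In the brain animal 12 of DMF 100 at 12 h was highest at 4.03.

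The 12 h effect differed from the 6 h effect by limma's test of the difference for 8 of the 39 genes in the spleen after DMF 179.2, for 2 in the inguinal node and 1 in the jejunum after DMF 179.2, and in the kidney for 6 after DMF 179.2, 4 after the combination and 1 after MEF. The genes and sizes are given with each organ.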

How the results depend on the processing

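No gene called in a comparison with vehicle changed sign under the alternatives run. No paired analysis was possible because the groups compared share no replicate numbers. Of single called genes, 529 values kept and 290 lost the call over the other alternatives together, and 1163 kept and 295 lost it when single arrays were left out; trend and robust variance lost 0 of 120 and shared places 91 of 108. Place lost 52 of 120, and dim genes left out lost 0 of the 69 still tested. The cause of the moves below was not tested, except that shared places and left-out arrays use fewer arrays and that leaving out dim genes tests 7 of the 39 genes in the kidney.

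Where the report has 4 or more called genes, the counts that moved by over 1.5 times were as follows. With place they were 4 in the 6 h spleen, 5 in the inguinal node and 5 in the 12 h jejunum after DMF 179.2, 3 in the 6 h jejunum, 8 in the 6 h and 1 in the 12 h kidney after DMF 179.2, and 5 for the spleen's time contrast. With the 2 groups alone they were 9 in the 6 h spleen, 0 in the inguinal node after DMF 179.2 and in naive, 1 in the 6 h jejunum, and in the kidney 7 after DMF 179.2 and 4 after the combination at 6 h, and 1 and 3 at 12 h. Within shared places they were 0 in the 6 h spleen and in the inguinal node after DMF 179.2, where 0 of all 17097 genes were called too. There they were also 0 in naive inguinal nodes, in the 6 h jejunum and in the kidney after DMF 179.2 at both times. They were 1 within shared places in the 12 h jejunum and in the 6 h kidney after the combination. After a further quantile normalisation they were 9 in the 6 h spleen, 8 in naive inguinal nodes, 2 and 4 in the 6 h and 12 h jejunum and 9 in naive kidneys. With dim genes left out they were, in the kidney, 3 after DMF 179.2, 1 after MEF and 1 after the combination at 6 h, and 2 after MEF, 3 after the combination and 3 in naive at 12 h. Without acinar or albumin arrays the 6 h spleen had 5, and without distal Hox arrays the 12 h jejunum had 2. Where the report has 1 to 3 called, at least 1 alternative took the count to 0 in every comparison of a group with vehicle. Where it has 0, the alternatives other than left-out arrays gave at most 1, and left-out arrays gave up to 3. With place the time contrast after DMF 179.2 in the jejunum had 3 in place of 1.

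With dim genes left out the median change also moved: in the 12 h brain to -0.0396 after the combination, -0.0436 after DMF 100, -0.0945 after DMF 179.2 and 0.0341 after MEF, in the 6 h brain to 0.0567 after the combination and 0.0758 after MEF, in the 12 h kidney to -0.1442 after the combination and 0.156 in naive, and in the 6 h kidney to 0.064 after the combination, -0.0006 after DMF 100 and 0.0481 after MEF. Within shared places it moved to 0.0159 in the 6 h kidney after DMF 100 and to -0.1471 in the 6 h mesenteric node after the combination. Of 451 medians under these alternatives 30 had the opposite sign to the one reported, 8 of them within shared places. In the 12 h mesenteric node shared places turned the median from -0.1156 to 0.1052 after the combination and from 0.0182 to -0.1626 after DMF 179.2, moves smaller than the SD between animals.

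Leaving out single arrays gave 6 to 27 called in the 6 h spleen after DMF 179.2 and 0 to 2 after the combination, 0 to 1 after the combination and 1 to 2 in naive spleens of 12 h. In the 12 h inguinal node it gave 0 to 16 after DMF 179.2, 0 to 13 in naive, 0 to 3 after MEF, 0 to 3 after the combination and 0 to 1 after DMF 100. In the jejunum it gave 2 to 7 after DMF 179.2, 0 to 4 after the combination, 0 to 2 after DMF 100 and 0 to 1 after MEF at 6 h, and 4 to 9 after DMF 179.2 at 12 h. In the kidney it gave 10 to 14 after DMF 179.2, 5 to 8 after the combination and 3 to 5 after MEF at 6 h, and 3 to 6 after the combination, 2 to 5 after DMF 179.2, 4 to 4 after MEF and 11 to 15 in naive at 12 h. Signals near the floor limit the kidney, brain and blood.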

Other observations

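The spleen and the kidney of the same animal can be set beside each other, since the animal number is shared over organs at a time. Over 65 animals of 10 groups the deviations of the mean of the 39 genes from the group mean had a Pearson r of 0.71 between spleen and kidney (Spearman 0.57), and the highest spleen and the highest kidney of a group came from the same animal in 3 of 10 groups. Animal 68, 6 h after DMF 179.2, had 9.16 in the spleen and 5.10 in the kidney, both the highest of their groups. Animal 17, 12 h after DMF 179.2, had 8.57 and 4.40, again both the highest. Between spleen and the other organs r was 0.31 for blood, 0.25 for the mesenteric node, 0.17 for the brain, 0.02 for the inguinal node and 0.00 for the jejunum. The same animal was highest in both in 4 of 11 groups for each node, 3 of 10 for jejunum and for blood, and 2 of 11 for brain. So a shared highest animal was not particular to the kidney. These values were looked at after the spleen results were seen and are descriptions with no test.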
